A study of Mus musculus with 6 samples.

Results

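The 194 long intergenic non-coding RNAs (lincRNAs) that were counted well in every liver of this series are described here, each beside its nearest protein-coding gene. They were selected on annotation and on measured counts. A gene entered when GENCODE M21 gave it the lincRNA biotype and when it had at least 10 raw counts in each of the 6 libraries, and the well-known lncRNAs Malat1, Neat1, Gas5, Meg3, Rian, Mirg, H19 and the Snhg genes were left out. Of 55385 genes in the table, 5617 had the lincRNA biotype and 1702 of these had at least 1 count. Liver poly(A) RNA came from 6 male mice fed a high-fat diet (HFD). Of these, 3 had undergone vertical sleeve gastrectomy (VSG, which leaves a narrow sleeve of the stomach) and 3 had undergone sham surgery. All mice started at 6 to 8 weeks of age, received HFD for 10 weeks before and 12 weeks after the operation, and gave about 40 mg of liver. Each library is 1 liver. Per the study's methods the mice were wild-type C57BL/6, and the labels name no transgene or drug for either group. The comparison asks which of these lncRNAs, and which of their neighbours, differ in the liver after VSG.

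LincRNAs are transcribed by RNA polymerase II, are usually spliced and polyadenylated, and encode no known protein. Some act on the gene next to them, at the level of chromatin or by the act of transcription itself, others act far from their locus, and for many no function is known. Start sites that lie back to back with the promoter of a coding gene are a common arrangement. In liver, single lncRNAs are known to take part in the control of lipid and glucose metabolism.

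The libraries held 22804397 to 24191778 counts, and the composition factors of TMM (a scaling that assumes that most genes keep their level) ran from 0.897 to 1.15. The members held 0.202% to 0.619% of all counts in a liver. Hepatocyte markers were abundant in all 6 livers, with a summed level of 62021 to 99088 CPM (counts scaled to library size) after the sham operation and 44968 to 71133 CPM after VSG, and none of these 6 markers passed the test. Summed levels of 10 neutrophil markers were 2.65 to 15.03 CPM in sham livers and 134 to 1798 CPM in VSG livers, all 10 markers were called higher and none was at 0. Of 8 markers of Kupffer cells and macrophages, 4 were called higher (summed level 345 to 730 CPM after the sham operation and 742 to 2165 CPM after VSG), and of 7 stellate cell markers, 1 was called lower (605 to 920 CPM after the sham operation and 294 to 569 CPM after VSG). Of 6 B and plasma cell markers, 5 were tested and 1 was called higher (5.32 to 7.28 CPM after the sham operation and 26.8 to 31.4 CPM after VSG). Of 5 bile duct markers, 1 was called higher (57.7 to 253 CPM and 73.4 to 200 CPM, overlapping between groups), and no marker of the T and NK cell, endothelial or erythroid lists was called. The part of these cells in the changes below was not tested, and in whole liver fewer cells of a type and less RNA per cell cannot be told apart.

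Sequences of 3 loci are shown, 2 for a lncRNA that lies close to a coding gene and 1 for a pair of lncRNAs. Gm30097 starts inside Fgg, which codes for the gamma chain of fibrinogen, on the opposite strand. Its first exon (GRCm38, chr3:83008354-83008488, minus strand, 135 bases) is shown with capitals for the 115 bases that lie opposite coding sequence of the Fgg exon at chr3:83008374-83008557.
Gm30097 first exon: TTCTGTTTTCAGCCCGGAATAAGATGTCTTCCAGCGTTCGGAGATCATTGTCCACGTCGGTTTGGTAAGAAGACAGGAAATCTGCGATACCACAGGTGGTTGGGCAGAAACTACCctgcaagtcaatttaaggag
Gm26608 begins 258 bases from the start of Insig1 and runs the other way. Insig1 codes for the endoplasmic reticulum protein that holds back the sterol-sensing SREBP complex. The RefSeq promoter window of Insig1 (GRCm38.p6, chr5:28071162-28071461, plus strand) spans most of the interval between the 2 genes. Jpx and Ftx, both of the X-inactivation centre, are shown because they moved together. Their windows are at chrX:103493308-103493607 (plus strand) and chrX:103623705-103624004 (minus strand). Each window holds 250 bases before and 50 after the start site, and capitals mark GGGCGG (the GC box), CACGTG (the E-box) and TATAAA on either strand. TCACNCCAC, a form of the sterol regulatory element, was also searched.
Insig1 promoter: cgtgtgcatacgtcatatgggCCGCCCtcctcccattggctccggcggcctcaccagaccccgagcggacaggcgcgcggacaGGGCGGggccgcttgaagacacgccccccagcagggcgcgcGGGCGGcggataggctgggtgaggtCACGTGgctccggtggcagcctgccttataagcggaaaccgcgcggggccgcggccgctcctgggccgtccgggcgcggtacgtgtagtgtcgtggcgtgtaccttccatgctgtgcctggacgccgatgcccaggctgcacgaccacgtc
Jpx promoter: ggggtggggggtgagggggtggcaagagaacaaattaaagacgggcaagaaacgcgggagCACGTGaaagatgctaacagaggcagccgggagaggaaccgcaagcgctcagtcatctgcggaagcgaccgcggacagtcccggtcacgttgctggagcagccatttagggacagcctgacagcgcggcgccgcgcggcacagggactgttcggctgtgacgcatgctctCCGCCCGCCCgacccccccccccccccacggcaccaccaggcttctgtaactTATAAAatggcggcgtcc
Ftx promoter: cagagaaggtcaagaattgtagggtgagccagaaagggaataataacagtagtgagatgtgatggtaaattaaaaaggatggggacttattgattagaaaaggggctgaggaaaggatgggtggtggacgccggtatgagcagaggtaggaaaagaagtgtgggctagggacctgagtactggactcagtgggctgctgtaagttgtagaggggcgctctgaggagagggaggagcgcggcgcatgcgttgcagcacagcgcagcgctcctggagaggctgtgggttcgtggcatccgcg
The Insig1 window held 3 GC boxes and 1 E-box, and the Jpx window held 2 overlapping GC boxes, 1 E-box and 1 TATAAA at base 283 of the window, after the start site. None of the 4 motifs was in the Ftx window, and TCACNCCAC was in none of the 3. Over all 32851 RefSeq windows of the same length, GGGCGG was in 35.7%, CACGTG in 7.15%, TATAAA in 13.6% and TCACNCCAC in 1.24%.

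Because the libraries were made from poly(A) RNA, the 3′ ends of the transcripts were also read. The poly(A) signals AATAAA or ATTAAA were in the last 50 bases of the longest GENCODE transcript for 114 of 194 members (58.8%), for 40.4% of the other 5423 lincRNAs and for 74.3% of the 12998 coding genes tested. Among the members with a call between VSG and sham, 12 of 24 had a signal. The last 60 bases of 1 member with a signal (capitals) and 2 without are shown.
Gm26608 (chr5:28019465-28019524, minus strand): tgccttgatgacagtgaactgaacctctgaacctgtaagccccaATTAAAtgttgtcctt
Gm15611 (chr5:8998402-8998461, minus strand): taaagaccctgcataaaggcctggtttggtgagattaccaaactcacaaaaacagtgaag
Gm44751 (chr7:88315805-88315864, plus strand): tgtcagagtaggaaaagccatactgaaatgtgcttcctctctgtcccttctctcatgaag
A missing signal says only that these letters are not in the last 50 annotated bases.

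The members were low in level and short. Their median mean count was 63.2, against 385 for the coding genes tested. Per length, the median was 1.55 FPKM (CPM per kb of exon) for members and 3.49 FPKM for coding genes. Under 1 FPKM were 72 members, and 16 had at least 10 FPKM. Exon length had a median of 2254 bases (range 168 to 16543), 37 members had a single exon block and all 21 chromosomes carried at least 1 member. Just inside the count minimum were Gm35035 and D830044D21Rik (lowest count 10, mean count 15.2 and 24.2), and among the 7 lincRNAs with a lowest count of 9 were Gm10032 and Lncpint (mean count 28.5 and 24.3).

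The highest level per length was that of Gm42418, with 784 FPKM on average. In sham livers it stood at 1516, 5026 and 604 CPM, and in VSG livers at 530, 506 and 434 CPM. RefSeq gives Gm42418 as another name of Rn18s-rs5, a gene related to 18S ribosomal RNA. All 3 sham livers were above the VSG livers, with sham 2 far above the rest, and the change was -2.28 ± 0.72 (log2 fold change ± SE, VSG against sham, edgeR quasi-likelihood adjusted p = 0.0759). Without sham 2 the change was -1.12 (edgeR adjusted p = 0.133). Without Gm42418 the members held 0.151% to 0.182% of counts. The next in order were AW112010 (112 FPKM), AC117816.1 (59.5 FPKM), C730036E19Rik (42.5 FPKM) and Gm15611 (28.3 FPKM), and of these only Gm15611 was called.

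After VSG, 20 members were higher and 4 were lower at an adjusted p under 0.05 (edgeR quasi-likelihood test, Benjamini-Hochberg over all 14454 genes tested, as for every adjusted p unless limma is named). The 24 calls are 12.4% of members, against 14.7% of all genes tested. Higher calls made up 10.3% of members against 6.79% of all genes, and lower calls 2.06% against 7.87%. The 3 VSG livers did not overlap the 3 sham livers in 70 members (36.1%, against 39.7% of all genes), among them all 24 called ones. At an unadjusted p under 0.05 were 57 members (29.4%, against 33.9% of all genes). Log2 fold changes were positive in 119 members and negative in 75, with a median of 0.17 beside 0.03 over all genes, and 106 members had a change under 0.5 in size. With total counts in place of TMM, the calls were 12 higher and 10 lower among members and 486 higher and 1512 lower over all genes. The medians then were 0.03 for members and -0.11 over all genes. A change of scaling moves every gene by nearly the same amount, so the like shift of both medians was fixed in advance. DESeq2, another test of the same counts, called 29 members higher and 13 lower, and with no filter beyond 1 count 23 were higher and 10 lower. Without sham 3 or without VSG 6 only 2 members were called, without sham 1 there were 9 and without sham 2 there were 12. Counts over all genes are not given for these settings. A gene near 0 in either group cannot have 10 counts in each library, and the part of the rule in the split was not tested. When a mean of at least 10 counts was asked for instead, 25 lincRNAs were higher and 16 were lower.

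**Figure D1:**
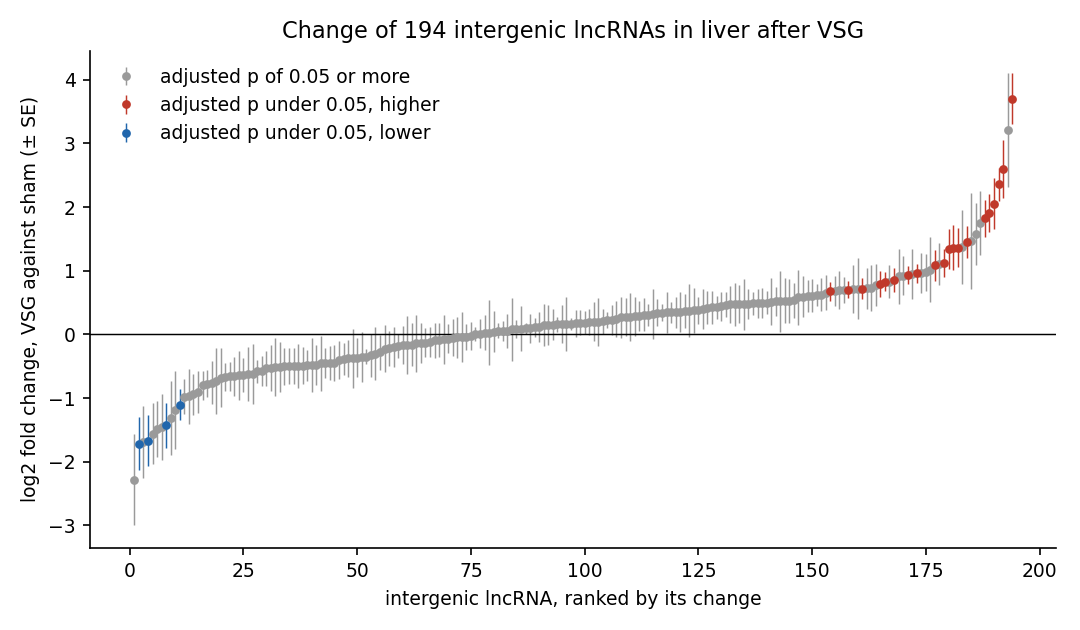
Log2 fold change of each of the 194 lncRNAs between 3 VSG and 3 sham livers (points, with SE as bars), in order of size, with called members in red (20 higher) and blue (4 lower). Several grey points with wide bars lie as far out as the called ones, such as Gm42418 at the left end with -2.28 (-1.12 without sham 2).

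Gm15611 had the largest change of the called members. This gene of 406 exon bases (chr5:8998402-8999669, minus strand) stood at 2.29, 1.23 and 1.37 CPM in sham livers and at 12.8, 30.7 and 20.5 CPM in VSG livers. Every VSG liver was above every sham liver, and the change was 3.70 ± 0.40 (adjusted p = 0.00673). AC121973.1, on chromosome 19, had 3.07, 5.53 and 1.71 CPM in sham livers and 13.3, 22.1 and 26.5 CPM in VSG livers (change 2.597 ± 0.45, adjusted p = 0.0182). AC157910.3, on chromosome 18, stood at 15.1 to 45.1 CPM in the sham group and at 90.7 to 152 CPM in the VSG group (change 2.05 ± 0.40, adjusted p = 0.024). Neither group overlapped the other in these genes. The Gm15611 call stood under all 11 alternatives, and 3 ended each of the others (without sham 1, sham 3 or VSG 6 for AC121973.1, and without sham 3, VSG 4 or VSG 6 for AC157910.3).

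Smaller rises, with no overlap of the groups, were called for AI463229 (5.28, 7.26 and 3.95 CPM in sham livers, then 18.2, 14.0 and 12.9 CPM in VSG livers), Gm36723 (0.673 ± 0.083 and 1.74 ± 0.54 CPM, mean ± SD, n = 3) and Platr4 (0.812 ± 0.105 and 2.06 ± 0.59 CPM). Of the 11 alternatives, 3 ended the call of AI463229 (without sham 1, sham 3 or VSG 6), 6 that of Gm36723 (total counts and every single liver left out but VSG 5) and 7 that of Platr4 (total counts and every single liver left out). The symbol C730027H18Rik is held by 2 members that overlap on chromosome 10, one of 8 exon blocks (12.2 ± 2.3 CPM after the sham operation and 23.8 ± 0.7 CPM after VSG) and one of 3 (3.09 ± 0.56 and 5.61 ± 0.33 CPM). Both were called higher, but they share sequence, so they are not separate observations. The call of the member with 8 blocks was lost without sham 3 and without VSG 6. That of the member with 3 blocks was lost under 6 of the 11 alternatives (total counts and every single liver left out but VSG 5).

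Among members with a known role, Jpx and Ftx were called higher. Jpx, known as an activator of Xist in female cells, had 5.28, 5.21 and 5.13 CPM in sham livers and 7.83, 9.66 and 10.2 CPM in VSG livers (change 0.83 ± 0.15, adjusted p = 0.0203). Ftx, which lies on the other strand and overlaps the end of Jpx, had 4.14, 3.79 and 4.07 CPM in sham livers and 6.29, 7.10 and 5.77 CPM in VSG livers (change 0.67 ± 0.15, adjusted p = 0.0336). The sham values of both genes lay close together, and all VSG values were higher. These livers were from males. With total counts in place of TMM, neither gene was called. Of the 11 alternatives, 8 ended the Ftx call, among them leaving out any 1 liver, and 5 ended the Jpx call, among them leaving out any 1 sham liver or VSG 6.

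The list of characterised lncRNAs held 9 members. Besides Jpx and Ftx, Gm15611 was called higher and Gm19619, given with its neighbour Btc, was called lower, and the 5 others were not called. 1700020I14Rik (Oip5os1 or Cyrano), known for driving the decay of miR-7, had 116, 120 and 116 CPM in sham livers and 119, 125 and 131 CPM in VSG livers (adjusted p = 0.507). Norad (2900097C17Rik), which binds Pumilio proteins, had 27.5 ± 1.9 and 30.9 ± 1.8 CPM (adjusted p = 0.26). Pvt1, which lies near Myc, had 3.42 ± 0.86 and 2.44 ± 0.36 CPM (adjusted p = 0.216), and Mir17hg, the host of a microRNA cluster, had 2.08 ± 0.32 and 3.35 ± 0.64 CPM (adjusted p = 0.0933). 5930430L01Rik had 3.03 ± 0.14 and 3.39 ± 1.23 CPM (adjusted p = 0.728).

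The 4 members called lower were Gm49668, Gm19619, Gm15408 and Gm31522. Gm49668 (chr17:15421802-15434965) had 1.48, 3.24 and 1.44 CPM in sham livers and 0.543, 0.556 and 0.763 CPM in VSG livers (change -1.71 ± 0.42, adjusted p = 0.0398). It overlaps the 3′ part of Fam120b on the opposite strand, and 184 of its exon bases face Fam120b exons. Its call was lost when any 1 liver was left out, and without sham 2 the change was -1.23. Gm15408 had 4.47, 4.25 and 4.10 CPM in sham livers and 0.86, 2.35 and 1.53 CPM in VSG livers (change -1.43 ± 0.35, adjusted p = 0.0398). Gm31522, of 762 exon bases, had 6.04 ± 0.53 and 2.80 ± 0.84 CPM (change -1.11 ± 0.24, adjusted p = 0.0313). In none of these did the groups overlap. Leaving out any 1 sham liver or VSG 6 ended the calls of Gm15408 and Gm31522, and leaving out VSG 4 also ended that of Gm15408.

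**Figure D2:**
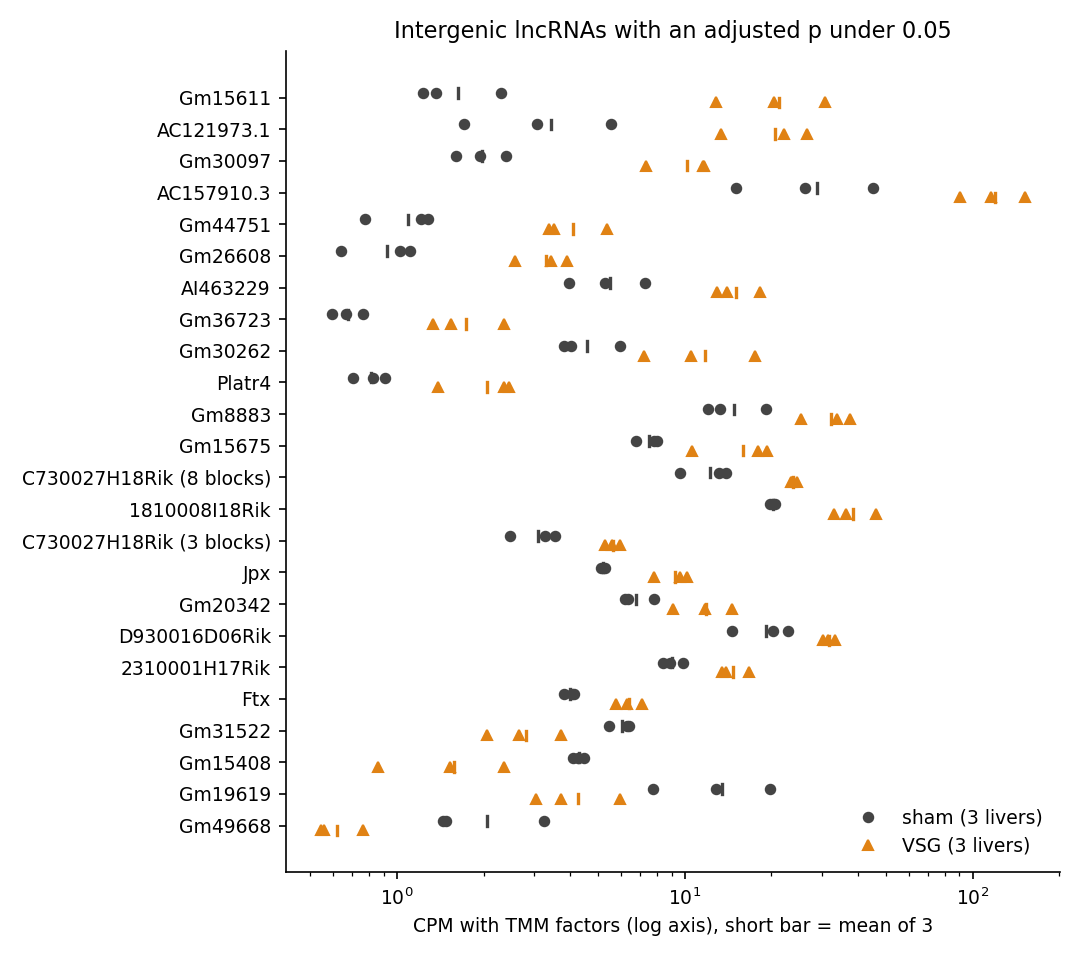
CPM of the 24 called lncRNAs in each liver, on a log axis, with sham livers as dark circles, VSG livers as orange triangles and group means as short bars. In every row the 3 circles and the 3 triangles occupy separate ranges, with a narrow gap for members such as Ftx (sham up to 4.14 CPM, VSG from 5.77 CPM).

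The nearest coding genes were 178 distinct genes, 15 of them shared by more than 1 member. Bodies of 20 members overlapped that of the neighbour. Of the others, 59 were divergent from it, 20 were convergent, 56 lay downstream and 39 upstream on the same strand, and the median gap was 9.53 kb. Of the neighbours, 151 passed the filter, and 31 of these were called (20.5%, against the 14.7% of all genes), 19 higher and 12 lower. With total counts in place of TMM, 26 were called, 10 higher and 16 lower, and with no filter beyond 1 count 28 were called, 14 in each direction. These counts also fell without single livers, to 1 without sham 3, 2 without VSG 6, 11 without sham 2, 14 without VSG 4 and 20 without sham 1.

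The lncRNA and its neighbour were both tested in 164 pairs, and their changes had the same sign in 114 (69.5%). Among 9736 coding genes set beside their own nearest coding gene, the share was 55.2%. Pearson's r of the changes was 0.36 over the 164 pairs and 0.24 over the coding pairs (Spearman's rho 0.40 and 0.15). Both genes of a pair come from the same 6 libraries and some pairs share a neighbour, so these are descriptions. The share was 75.5% for lncRNAs downstream on the same strand, 74.1% for divergent ones, 68.8% for convergent ones, 66.7% for overlapping ones and 53.3% for those upstream on the same strand. By distance it was 66.7% up to 1 kb, 74.5% from 1 to 10 kb, 66.7% from 10 to 100 kb and 73.3% over 100 kb. Both genes were called in 8 pairs, 7 in the same direction (4.27%, against 2.33% of the coding pairs) and 1 in opposite directions. Without single livers these 8 became 0 (without sham 3), 1 (without VSG 6), 2 (without sham 2) and 3 (without sham 1 or without VSG 4).

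**Figure D3:**
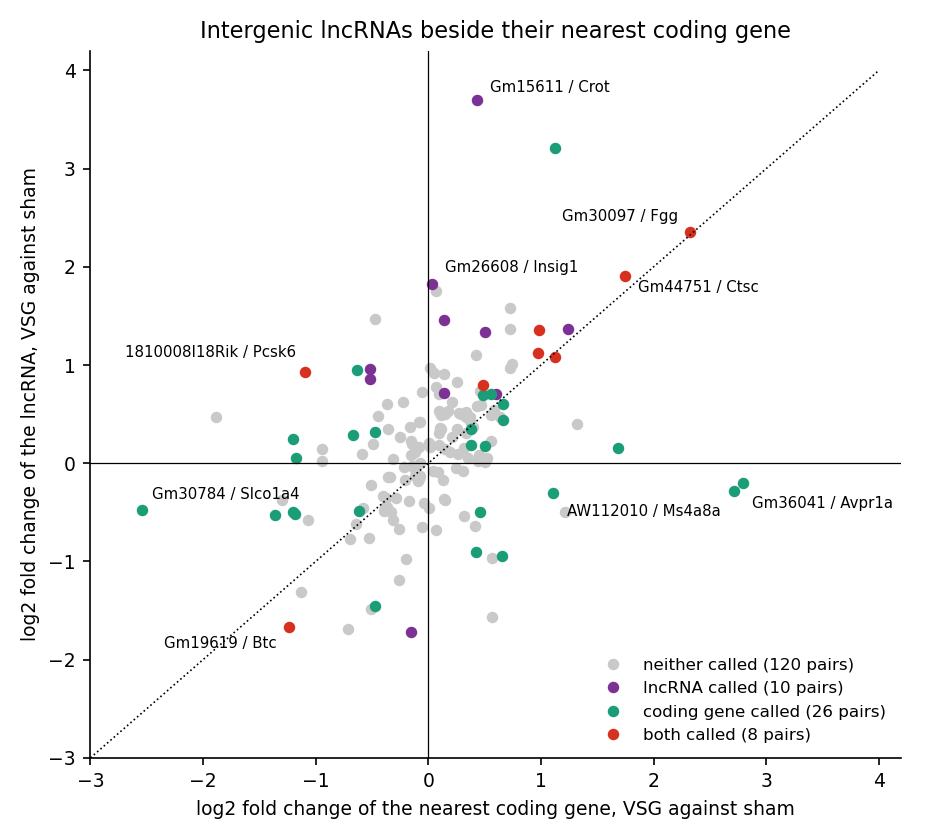
Log2 fold change of each lncRNA against that of its nearest coding gene for the 164 tested pairs, colored by which gene was called, with equal change as a dotted line. The 8 pairs with both called lie near the line apart from 1810008I18Rik and Pcsk6, and pairs such as Gm15611 and Crot or Gm36041 and Avpr1a lie along the axes.

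In 4 of the 7 pairs called in the same direction, the lncRNA was downstream of the coding gene on the same strand. Gm44751, a single block of 4387 bases, begins 0.59 kb after the end of Ctsc, which codes for cathepsin C, a protease that activates serine proteases of immune cells. Gm44751 had 0.776, 1.28 and 1.22 CPM in sham livers and 5.38, 3.50 and 3.39 CPM in VSG livers (change 1.91 ± 0.30, adjusted p = 0.0155). Ctsc had 136, 125 and 118 CPM in sham livers and 572, 283 and 417 CPM in VSG livers (change 1.75 ± 0.26, adjusted p = 0.0127). Whether reads of Gm44751 come from Ctsc transcripts that run on was not tested. Gm15675 lies 1.84 kb after Cd55, which codes for an inhibitor of complement. The lncRNA had 7.53 ± 0.68 and 15.9 ± 4.7 CPM and Cd55 had 15.1 ± 1.2 and 32.8 ± 9.0 CPM. Their changes were 1.08 and 1.12, and whether reads of Gm15675 come from Cd55 transcripts that run on was not tested either. Gm30262 had 4.59 ± 1.18 and 11.7 ± 5.3 CPM, and Phlda1, 90.5 kb away, had 25.8 ± 4.0 and 50.8 ± 11.6 CPM. Gm19619 and Btc, which codes for the growth factor betacellulin, were both lower, Gm19619 at 13.5 ± 6.0 and 4.24 ± 1.54 CPM and Btc at 7.46 ± 3.28 and 3.18 ± 0.45 CPM. The change was -1.67 for Gm19619 (adjusted p = 0.0377) and -1.23 ± 0.32 for Btc (adjusted p = 0.0491, just under the threshold). Btc stood at 11.2, 5.03 and 6.15 CPM in sham livers. Without sham 1 the change of Gm19619 was -1.29 (adjusted p = 0.0784). Of the 11 alternatives, 2 ended the call of Gm44751, 5 that of Gm15675, 6 that of Gm30262 and 4 that of Gm19619, in each case with sham 3 and VSG 6 among the livers whose omission did so.

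The 3 other pairs called in the same direction were an overlapping one and 2 divergent ones. Gm30097 had 2.40, 1.599 and 1.94 CPM in sham livers and 11.7, 7.35 and 11.5 CPM in VSG livers (change 2.36 ± 0.26, adjusted p = 0.00673). Fgg had 2290, 2196 and 1902 CPM in sham livers and 11934, 8958 and 11111 CPM in VSG livers (change 2.32 ± 0.26, adjusted p = 0.00721). The changes of both genes were nearly equal, and Fgg was at 3057 FPKM on average against 7.92 FPKM for Gm30097. The strand setting of the counting is not given in the sources used here, so reads of Fgg on the 115 shared bases cannot be told apart from reads of Gm30097. Gm8883 had 14.8 ± 3.9 and 32.2 ± 6.2 CPM, and Fn1 (fibronectin), 235 kb away, had 2559 ± 228 and 5032 ± 480 CPM. Gm20342 had 6.80 ± 0.90 and 11.8 ± 2.7 CPM, and Ino80d, a subunit gene of the INO80 chromatin remodeller, had 42.6 ± 3.9 and 59.7 ± 4.1 CPM. Gm20342 lies within the body of Ino80dos, a member on the same strand that was not called (change 0.69 ± 0.30, adjusted p = 0.152). Whether reads of Gm20342 come from Ino80dos transcripts was not tested. The Gm30097 call stood under all 11 alternatives, 3 ended that of Gm8883 (without sham 1, sham 3 or VSG 6) and 6 that of Gm20342 (total counts and every single liver left out but VSG 5).

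Whether a lncRNA and its neighbour changed unequally was tested with limma on the difference of their log2 CPM, over all 14454 genes and their nearest tested coding genes. The difference was called in 22 member pairs (11.3%, against 14.6% of all pairs). The lncRNA rose more or fell less in 14 of them and fell more or rose less in 8. In 9 pairs only the lncRNA had been called by edgeR, in 9 only the coding gene, in 1 both and in 3 neither. The count was 4 without sham 3 and 4 without VSG 6, 10 without sham 2 and 12 without VSG 4, and 4 pairs were called under all 8 alternatives with the same neighbour.

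These 4 pairs were Gm15611 with Crot, 1810008I18Rik with Pcsk6, Gm36041 with Avpr1a and AW112010 with Ms4a8a. Crot, which codes for a peroxisomal acyltransferase for medium-chain fatty acids, begins 1.08 kb from the end of Gm15611 on the same strand. Crot had 1125, 960 and 965 CPM in sham livers and 950, 1844 and 1328 CPM in VSG livers, so its groups overlapped, and the log2 difference to Gm15611 was 3.22 ± 0.22 (limma adjusted p = 0.00226). 1810008I18Rik lies 55.3 kb from Pcsk6, which codes for a proprotein convertase. The lncRNA rose from 20.6, 20.2 and 19.8 CPM in sham livers to 33.0, 46.2 and 36.3 CPM in VSG livers (change 0.93 ± 0.14, adjusted p = 0.013). Pcsk6 fell from 169, 226 and 210 CPM to 67.0, 125 and 91.0 CPM (change -1.10 ± 0.24, adjusted p = 0.0313), and the difference was 2.05 ± 0.18 (limma adjusted p = 0.0031). This was the only pair of the 164 with both genes called in opposite directions. The edgeR call of 1810008I18Rik was lost without sham 3 and without VSG 6.

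In the other 2 pairs the coding gene moved and the lncRNA was not called. Gm36041 had 5.21, 4.89 and 4.33 CPM in sham livers and 2.94, 6.33 and 3.29 CPM in VSG livers. Its neighbour Avpr1a, the vasopressin receptor 1A, had 4.95, 7.54 and 2.93 CPM in sham livers and 23.9, 42.0 and 40.6 CPM in VSG livers, and the difference was -3.10 ± 0.36 (limma adjusted p = 0.00624). AW112010 had 84.6, 103 and 109 CPM in sham livers and 96.0, 48.3 and 101 CPM in VSG livers, with overlapping groups. Ms4a8a, of a family of membrane proteins, had 0.406, 1.005 and 1.03 CPM in sham livers and 6.47, 2.18 and 7.30 CPM in VSG livers, and the difference was -2.85 ± 0.34 (limma adjusted p = 0.00624). C730027H18Rik of 8 exon blocks and Bicc1 differed by 1.45 ± 0.21 (limma adjusted p = 0.0104), and AC121973.1 and Klf9, its nearest tested coding gene, by 2.25 ± 0.35 (limma adjusted p = 0.0121). Both differences missed the threshold without sham 3 and without VSG 6.

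**Figure D4:**
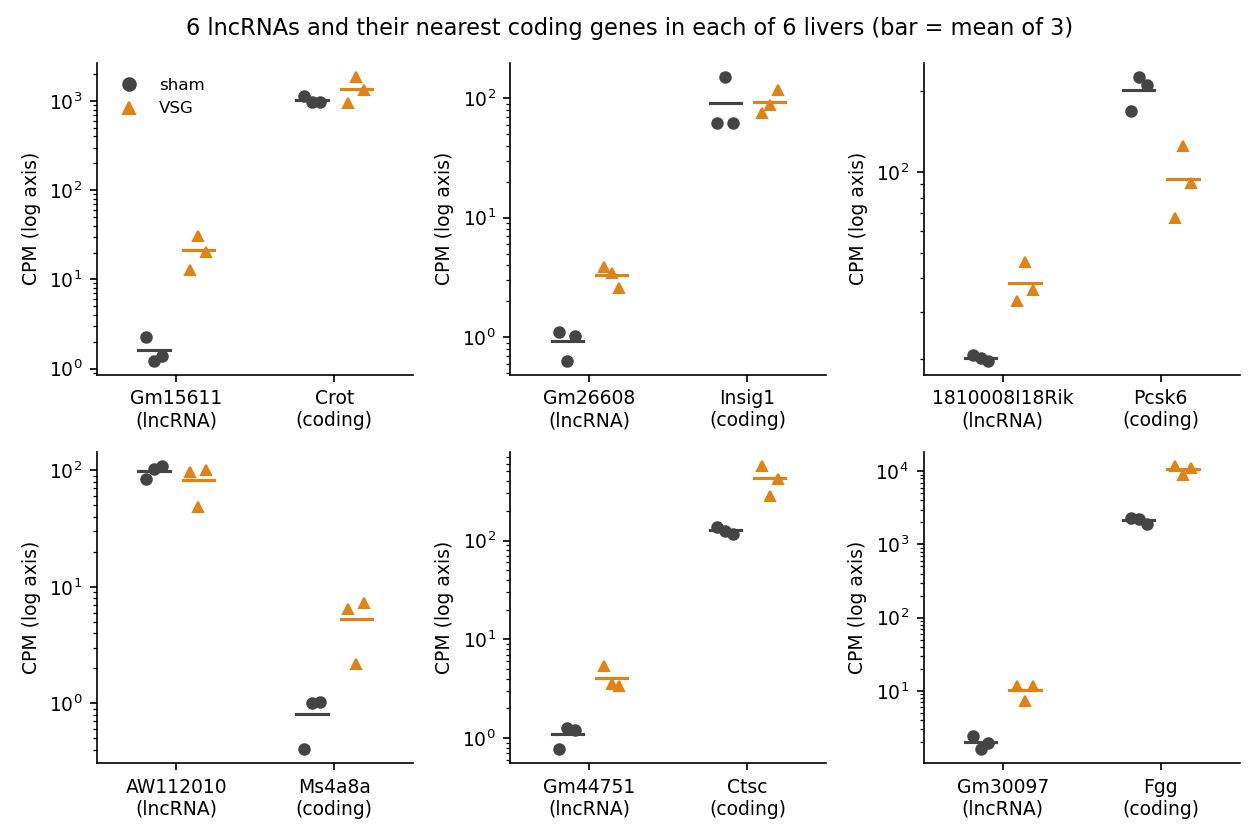
CPM of 6 lncRNAs (left in each panel) and their nearest coding genes (right) in each sham liver (dark circles) and VSG liver (orange triangles), on log axes with group means as bars. Gm44751 and Gm30097 rise together with Ctsc and Fgg, Gm15611 rises beside a Crot whose groups overlap, and 1810008I18Rik and Pcsk6 move in opposite directions.

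Start sites within 1 kb of each other on opposite strands were found in 19 pairs. Only Gm26608 was called among these lncRNAs (5.26%, against 12.4% of all members and 14.7% of all genes). Changes had the same sign in 13 of the 19 pairs (68.4%), close to the 69.5% of all member pairs. Gm26608 had 1.11, 0.64 and 1.03 CPM in sham livers and 3.89, 3.42 and 2.58 CPM in VSG livers (change 1.82 ± 0.29, adjusted p = 0.016). Its call was lost without sham 3 and without VSG 6. Insig1 had 61.6, 150 and 61.4 CPM in sham livers and 74.9, 88.1 and 116 CPM in VSG livers (change 0.03 ± 0.38, adjusted p = 0.959). Its groups overlapped, with the highest value in sham 2. The difference of the changes in this pair, 1.61, had a limma adjusted p of 0.111, so an unequal change was not shown. In the 19 pairs 4 neighbours were called (21.1%, against 20.5% of all tested neighbours).

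Of the called members, 10 had a tested neighbour that was not called and 6 a neighbour under the filter, such as Zcchc13 beside Ftx, at 0 counts in all libraries. In 26 pairs the neighbour was called and the member was not. One of these, chosen after its values were seen, is Gm30784 with Slco1a4, a transporter of organic anions, which fell from 90.3, 156 and 127 CPM in sham livers to 9.14, 37.1 and 17.6 CPM in VSG livers. Gm30784 had 1.87 ± 0.52 and 1.34 ± 0.30 CPM, and the difference was 2.29 ± 0.40 (limma adjusted p = 0.0156), which also missed the threshold without sham 3 and without VSG 6. Exons of 10 members faced a coding exon on the opposite strand, 2 of them called (Gm30097 and Gm49668), and 4 members, none called, shared exon bases with a coding gene on the same strand. With 10 and 4 members, these counts cannot be set apart from the 12.4% of all members or the 14.7% of all genes.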

How the data were processed

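Poly(A) RNA-seq of mouse liver was analysed in 3 sham and 3 VSG livers. The deposited values are raw counts per gene with gene position and exon length. Per the labels, the authors made strand-specific libraries, aligned them to mm10 with STAR 2.6.0 and counted with featureCounts 2.0.3, for which the methods give another release. The annotation release and strand option are not given in the sources used here. Of 55385 genes, 54487 had identifier and version of GENCODE M21, and 189 of the 194 members did.

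Counts were filtered with filterByExpr (minimum count 10, minimum total 15), scaled with TMM and tested with edgeR 4.0.16 (glmQLFit, glmQLFTest, threshold 0.05) in R 4.3.3, with group as the only term. Pair differences of log2 CPM (prior count 2) were tested with limma 3.58.1 (eBayes with trend). The scripts were tested on simulated data. DESeq2 1.42.0 and other settings were alternatives. FPKM is CPM per kb of exon.

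The members and lists were chosen with earlier results of these data known. Named members were those on a list of characterised lncRNAs, the 10 largest called changes in each direction, the 5 highest by FPKM, pairs with both genes called, the 6 leading pair differences and genes at the count minimum. That list held Oip5os1, Tug1, 2900097C17Rik, Ftx, Jpx, Lncpint, Pvt1 and others. Those outside the rule were not reported, apart from Lncpint as a gene just under the count minimum. Gene neighbours were taken by the smallest gap between gene bodies. Sequences came from GENCODE M21 transcripts and RefSeq (GRCm38.p6). With 3 livers a group, each p-value sets the group difference against the spread between livers, which is estimated with help from other genes.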

Additional observations from a re-analysis of the deposited data

How the results depend on the processing

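The counts depended most on single livers. Leaving out 1 liver at a time gave 2 to 29 called lncRNAs (24 with all livers), 1 to 35 called neighbours (31), 0 to 10 pairs with both called (8) and 4 to 27 called pair differences (22). Each such fit had 1 liver fewer, the highest of each count came without VSG 5, and the cause of this dependence was not tested. DESeq2 called 42 lncRNAs and 13 pairs with both genes, and a mean of at least 10 counts as the membership rule gave 41 called lincRNAs. Counts over all genes are given only for the main fit and for total counts. The other counts are therefore not read as traits of these lncRNAs. Total counts without composition factors lost 9 of the 24 calls and DESeq2 lost 0. Of 24 called lncRNAs, 2 (Gm30097 and Gm15611) stayed called under all 11 alternatives. The change turned sign, with no call on either side, for 1700020I14Rik with total counts (-0.0489), for 5930430L01Rik without VSG 5 (-0.11, range with 1 liver left out up to 0.42) and for Gm36041 without VSG 4 (0.00463, range down to -0.65). Gm42418 was called with DESeq2, with total counts and with no filter beyond 1 count. No paired analysis was possible because the sham livers are numbered 1 to 3 and the VSG livers 4 to 6. The median SE was 0.29 for members and 0.19 over all genes, beside a lower median count of members, and the part of depth in this was not tested.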

Other observations

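Of the lincRNAs that passed the filter, 114 fell outside the count minimum and were not left out by name. Of these, 18 were called (15.8%, close to the 14.7% of all genes tested). After VSG, 6 were higher and 12 lower, beside 6.79% and 7.87% of all genes. Of the 18, 14 changed by at least 4-fold. No share over all genes was taken for changes of that size. Among the members, 4 called changes were of that size. Genes near 0 in 1 group could enter this set but not the members.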
